A study of Homo sapiens with 2 samples.

Results

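Interferon-stimulated and RNA-sensing genes were followed after silencing of ADGRF4, which encodes a receptor of the adhesion GPCR family, in the lung adenocarcinoma line A549 (human, long established). The set holds 39 genes of the 24462 distinct symbols in the count files, chosen as a list of gene symbols. All 39 symbols were found. One library came from A549 cells transfected with ADGRF4 siRNAs and 1 from A549 cells transfected with control siRNAs. Both cultures therefore received transfected RNA, and an untransfected culture was not analysed here. With 1 library per treatment there was no replicate, so no test and no p-value is given, and every difference is between these 2 libraries.

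Interferons are secreted when cells detect viral or other foreign nucleic acid. Cytosolic helicases such as RIG-I (gene DDX58) and MDA5 (IFIH1) bind foreign RNA and signal through the adaptor MAVS to induce interferon genes. Interferon then acts through its receptors, JAK kinases and a complex that holds STAT2 and IRF9, which binds the interferon-stimulated response element (ISRE) in the promoters of its target genes. Those targets block infection at entry, RNA stability, translation and release. Small RNAs introduced by transfection can themselves be seen by some of these sensors.

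The ADGRF4 siRNA library held 9825320 counts and the control library 10396047. ADGRF4 had 1 count in the ADGRF4 siRNA library and 3 counts in the control library. Both are at or under 3 counts, the upper limit for a count of 0, so no fold is given and the labels are not checked by the silenced gene. Of 9 epithelial and A549 markers, all passed the count limit used below, with 122595 counts in the ADGRF4 siRNA library and 139321 in the control library. By the 1.5-fold limit used below, 6 of the 9 were lower after ADGRF4 siRNA and 2 higher. Over all compared symbols 22.3% were lower and 21.1% higher. KRT18, which holds most of the sum after ADGRF4 siRNA, had 79367 counts there and 58990 in the control library. CDH1 had 239 counts after ADGRF4 siRNA and 1218 after control siRNA. The lists of leukocyte, fibroblast and endothelial markers summed to 240, 57 and 3 counts after ADGRF4 siRNA, against 318, 50 and 0 in the control. CD3E, PDGFRB, VWF and KDR were at 0 in both libraries. CD68 had 198 counts after ADGRF4 siRNA and 260 in the control, CD14 30 and 45, and COL1A1 45 and 50. These markers passed the count limit, so not every marker of other cell types was unread.

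A regulatory feature of many, but not all, genes of the set is the ISRE. It is shown here because the results below set genes with the same motif side by side. The motif searched was GAAA, then NN (any bases), then GAAA, on either strand, in the RefSeq window (GRCh38.p14) from 250 bases before to 50 bases after the start site. Of the 39 genes, 31 had a promoter in the table, and 21 of these (67.7%) held at least 1 match, against 3.57% of all 35114 promoters. The 21 promoters held 37 matches in 12 different 10-base forms, some of them overlapping. A match is a run of letters, and binding was not measured here. The windows below are the matches nearest to the start site in 8 genes, with the motif in capitals, read 5′ to 3′ on the strand that carries it.
EIF2AK2: agtccaagggGAAAACGAAActgagaacca
OAS3: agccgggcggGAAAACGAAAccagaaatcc
IFIT5: cgagcgctcaGAAACTGAAActtaagaaat
DTX3L: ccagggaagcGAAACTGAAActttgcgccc
IFI44: tcagagaaagGAAACTGAAActcagtgtgc
IFIT3: gaggaaactgGAAAGTGAAActaatttaaa
PARP14: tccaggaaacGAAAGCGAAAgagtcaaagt
IFIH1: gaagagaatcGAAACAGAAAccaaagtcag

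These windows lie at chr2:37156967-37156996 (minus strand) for EIF2AK2 and chr12:112938452-112938481 (plus strand) for OAS3. The IFIT5 window is chr10:89414554-89414583 (minus), the DTX3L window chr3:122564322-122564351 (plus) and the IFI44 window chr1:78649761-78649790 (minus). IFIT3 is at chr10:89327865-89327894 (minus), PARP14 at chr3:122680800-122680829 (plus) and IFIH1 at chr2:162318686-162318715 (minus). The motif in EIF2AK2 and that in OAS3 are the same 10 letters. The letters GAAACTGAAA were found in 8 genes, among them IFIT5, DTX3L, IFI44 and, at a further match not shown, OAS3.

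For the comparison, library sizes were adjusted with edgeR's TMM factors (trimmed mean of M values), and 22 of the 39 genes averaged 30 counts or more across the pair of libraries. A gene was called higher or lower when the log2 ratio of (CPM + 1), ADGRF4 siRNA over control siRNA, reached 1.5-fold. A fold or ratio given for a gene divides its scaled CPM values with no pseudocount added, and its exact 95% interval for counting error follows in parentheses. The set had no common direction. Of the 22 compared genes, 3 were called higher, against 21.1% of all 11771 compared symbols, and 5 lower, against 22.3%, and 14 lay between. With total-count scaling the set gave 2 higher and 6 lower, and all compared symbols 1898 higher and 3265 lower in place of 2483 and 2624. At a limit of 2-fold, 2 genes were higher (7.84% of all compared symbols) and 2 lower (10.4%). The median log2 ratio of the set was -0.10, beside -0.02 for all compared symbols. The SD of its log2 ratios was 0.60, beside 0.77. Counting intervals, which take the TMM scaling as given, lay wholly above a ratio of 1 for 7 genes and wholly below it for 6. They held 1 for the other 9. Of all compared symbols, 36.1% lay above and 36.1% below.

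**Figure D1:**
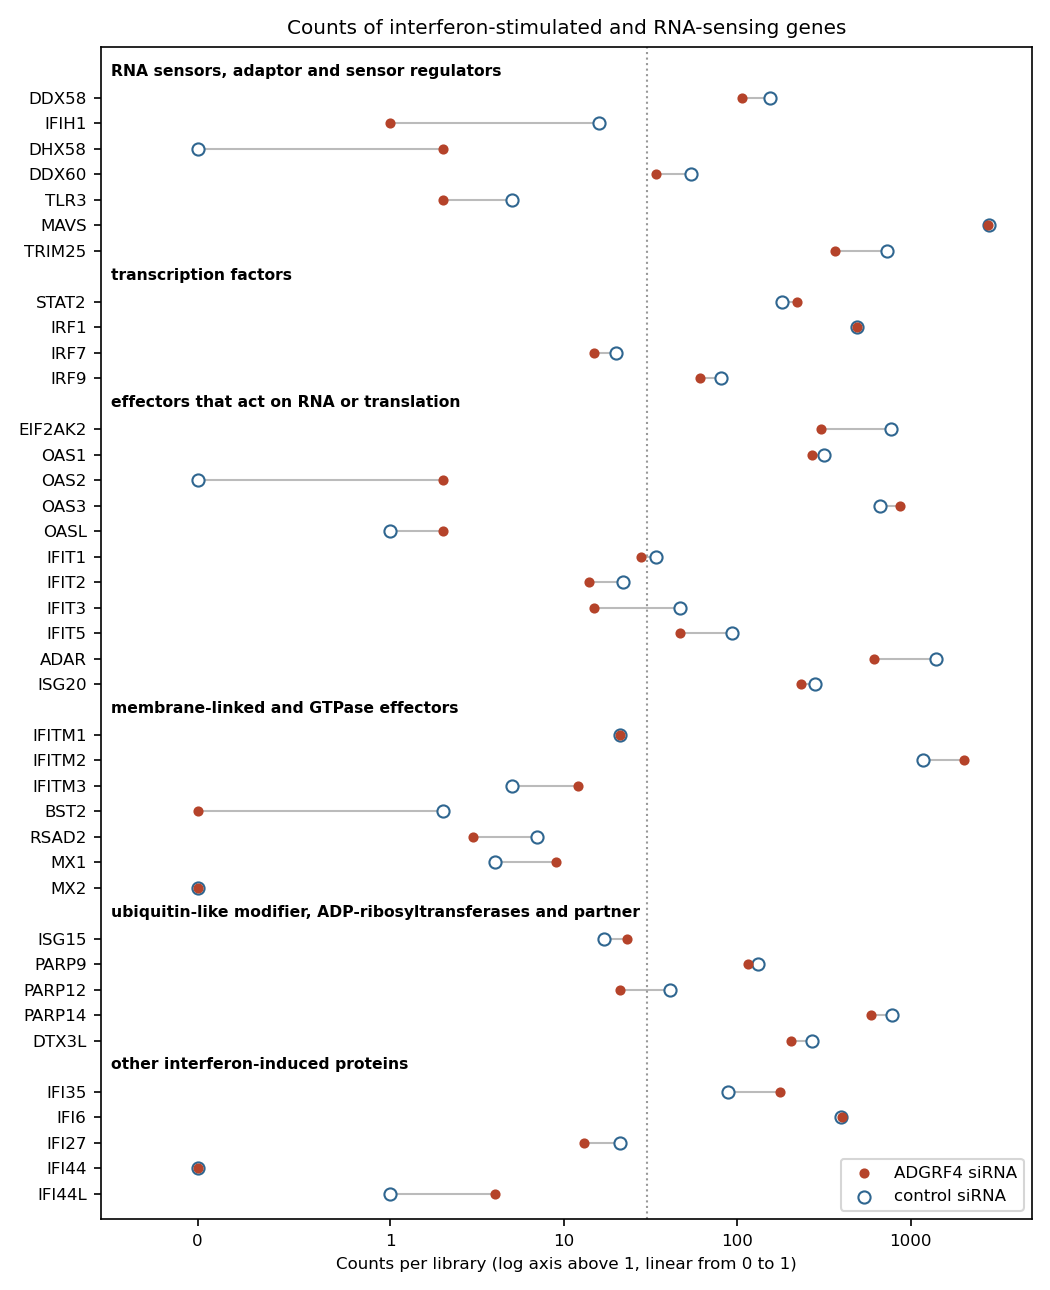
Counts of each of the 39 genes in the ADGRF4 siRNA library (filled) and the control siRNA library (open), grouped by role, with 1 point per library; the dotted line marks 30 counts. A mean of 30 is not reached by 17 genes, IFI44 and MX2 are at 0 in both libraries, and the widest separations among genes with over 100 counts in each library are those of EIF2AK2 and ADAR.

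Of the RNA sensors, the 2 that were compared, DDX58 and DDX60, had lower ratios within counting error, and IFIH1 was lower on few counts. DDX58, which encodes the sensor RIG-I, had 107 counts in the ADGRF4 siRNA library and 154 in the control, a ratio of 0.815 (0.631 to 1.05). DDX60, a helicase linked to antiviral responses, had 34 and 54 counts, a ratio of 0.739 (0.466 to 1.16). Neither interval excludes equal levels. IFIH1, which encodes the sensor MDA5, had 1 count after ADGRF4 siRNA and 16 in the control, 13.6-fold lower (2.12 to 572). That gene is under the count limit. DHX58, which encodes LGP2, a regulator of both helicases, had 2 counts in the ADGRF4 siRNA library and 0 in the control. TLR3, the endosomal receptor for double-stranded RNA, had 2 and 5 counts.

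MAVS, the mitochondrial adaptor on which RIG-I and MDA5 converge, was read deeply in both libraries, with 2790 counts after ADGRF4 siRNA and 2830 in the control. Its ratio of 1.16 (1.10 to 1.22) was small. The interval is narrow for counting error only and takes the TMM scaling as given. TRIM25, a ubiquitin ligase known for its part in RIG-I activation, had 364 counts in the ADGRF4 siRNA library and 731 in the control, 1.71-fold lower (1.51 to 1.95). It was the only called gene of the 4 compared in this group, which is 25% lower, beside 22.3% of all compared symbols. Exons of TRIM25 are overlapped on the other strand by DGKE in GENCODE 29, and without a strand setting the counts could hold reads of either gene. On the same strand its exons are overlapped by C17orf67 and MIR3614, which strand does not separate.

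The compared transcription factors of the set, STAT2, IRF1 and IRF9, lay between the limits. STAT2, the activating subunit of the interferon response complex, had 220 counts after ADGRF4 siRNA and 181 in the control, a ratio of 1.43 (1.17 to 1.75). IRF9, the DNA-binding subunit of that complex, had 61 and 81 counts, a ratio of 0.883 (0.623 to 1.25). IRF1, a factor with its own interferon-induced targets, had 493 and 491 counts, a ratio of 1.18 (1.04 to 1.34). The intervals of STAT2 and IRF1 lie above 1 for counting error, whereas that of IRF9 holds 1. IRF7, which amplifies interferon gene expression, had 15 and 20 counts and was under the limit. Exons of IRF1 are overlapped on the other strand by C5orf56, and every 50-base window of the longest IRF9 transcript also occurs in AL136295.5, annotated on the same strand.

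Of the 11 enzymes and binding proteins that act on RNA, 8 were compared, with 1 called higher, 4 lower and 3 between. The shares over all compared symbols were 21.1% higher and 22.3% lower. EIF2AK2 encodes PKR, a kinase that stops translation when it binds double-stranded RNA. It had 304 counts after ADGRF4 siRNA and 771 in the control, 2.16-fold lower (1.89 to 2.48). ADAR, which edits adenosine to inosine in double-stranded RNA, had 612 and 1402 counts, 1.95-fold lower (1.77 to 2.15). The intervals of these genes are narrow, because both were read deeply. Exons of EIF2AK2 are overlapped on the other strand by GPATCH11.

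The oligoadenylate synthetases, which make the activator of the nuclease RNase L, did not share this direction. OAS3 had 864 counts in the ADGRF4 siRNA library and 662 in the control, 1.53-fold higher (1.38 to 1.70), just past the limit. OAS1, whose exons are overlapped on the other strand by AC004551.1, had 268 and 317 counts, a ratio of 0.992 (0.840 to 1.17). OAS2 had 2 counts after ADGRF4 siRNA and 0 in the control, and OASL, a related protein without synthetase activity, had 2 and 1. The OAS family had 1 gene higher, 1 with a ratio near 1 and 2 that were almost unread. OAS3 and EIF2AK2 carry the same ISRE letters shown above and were called in opposite directions.

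The IFIT proteins bind viral RNA ends and hinder translation. IFIT3 had 15 counts in the ADGRF4 siRNA library and 47 in the control, 2.67-fold lower (1.47 to 5.14). IFIT5 had 47 and 93 counts, 1.69-fold lower (1.18 to 2.45). IFIT1 had 28 and 34 counts, with a ratio of 0.966 (0.564 to 1.64), and IFIT2 had 14 and 22 and was under the limit. All 4 had fewer raw counts after ADGRF4 siRNA, but the intervals of IFIT1 and IFIT2 hold 1. ISG20, an exonuclease of single-stranded RNA, had 233 and 279 counts, a ratio of 0.980 (0.820 to 1.17).

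**Figure D2:**
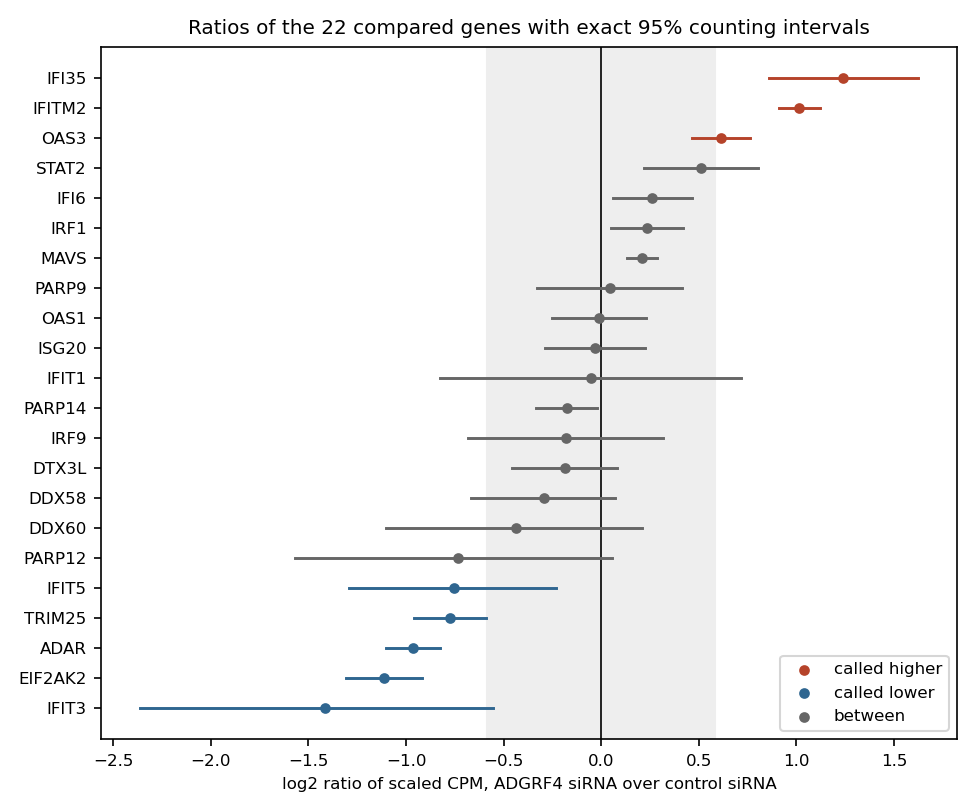
Log2 ratios of scaled CPM, ADGRF4 siRNA over control siRNA, for the 22 compared genes, with exact 95% intervals for counting error; grey marks ratios under 1.5-fold. IFI35, IFITM2 and OAS3 are called higher and IFIT5, TRIM25, ADAR, EIF2AK2 and IFIT3 lower; PARP12 lies outside the grey band here but was not called with the pseudocount.

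Of the 7 membrane-linked and GTPase effectors, only IFITM2 passed the count limit. IFITM proteins hinder the fusion of viruses with host membranes. IFITM2 had 2020 counts after ADGRF4 siRNA and 1173 in the control, 2.02-fold higher (1.88 to 2.17). Its neighbours in the gene cluster on chromosome 11 were hardly read. IFITM1 had 21 counts in each library, and IFITM3 had 12 and 5 counts, a ratio of 2.82 (0.923 to 10.2). The genes of this cluster are near-identical in places. Of the 50-base windows of the longest GENCODE 29 transcript, 15.8% of those of IFITM2 and 20.3% of those of IFITM3 also occur in another gene's transcript. Within the last 300 bases the shares were 1.59% and 15.1%. For the longest transcript of IFITM1, whose exons overlap those of IFITM2 on the same strand, they were 42.3% of all windows and 100% of those in the last 300 bases. How reads with several map positions were treated is not given in the sources used here, so the split of reads among the IFITM genes is uncertain.

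The other antiviral effectors of this kind were close to unread. MX1, an interferon-induced GTPase and a common marker of the response, had 9 counts after ADGRF4 siRNA and 4 in the control. MX2 had 0 in each, which allows up to 0.305 CPM of the library total in the ADGRF4 siRNA library and 0.289 CPM in the control. BST2, which tethers budding virus, had 0 and 2 counts, and RSAD2, which encodes viperin, 3 and 7. No difference in these genes was detectable at this depth.

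ISG15, a ubiquitin-like protein attached to other proteins during the interferon response, had 23 counts in the ADGRF4 siRNA library and 17 in the control, a ratio of 1.59 (0.811 to 3.16). It was under the limit. PARP9 and DTX3L, which work as a complex and are transcribed from neighbouring start sites, had close values. PARP9 had 116 and 132 counts, a ratio of 1.03 (0.796 to 1.33), and DTX3L had 203 and 271 counts, a ratio of 0.879 (0.729 to 1.06). Their exons overlap on opposite strands. PARP14, an ADP-ribosyltransferase, had 588 and 779 counts, a ratio of 0.885 (0.794 to 0.987). PARP12, of the same enzyme family, had 21 and 41 counts, 1.66-fold lower (0.961 to 2.96). None of the 4 compared genes in this group was called.

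IFI35 had the highest ratio of the 22 compared genes. It encodes an interferon-induced leucine zipper protein, and had 177 counts after ADGRF4 siRNA and 88 in the control, 2.36-fold higher (1.82 to 3.08). IFI6, a mitochondrial protein that limits apoptosis, had 404 and 395 counts, a ratio of 1.20 (1.04 to 1.38). IFI27, another strongly interferon-induced gene, had 13 and 21 counts. IFI44 had 0 in each library, and IFI44L had 4 after ADGRF4 siRNA and 1 in the control.

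In all, the 17 genes under the limit summed to 123 counts in the ADGRF4 siRNA library and 142 in the control. Each had at most 23 counts after ADGRF4 siRNA and at most 22 in the control. Of these 17, 6 had no more than 3 counts in each library. Of the 15 with any count, the interval held a ratio of 1 for 14, and IFIH1 was the exception. The whole set took 0.103% of the counts after ADGRF4 siRNA and 0.107% in the control.

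Genes with and genes without the ISRE letters in the searched window both held calls in each direction. A single promoter window was searched per gene, so a gene without a match there may hold the letters elsewhere. Of the 21 genes with a match, 11 were compared. OAS3 was called higher, EIF2AK2, IFIT3 and IFIT5 lower and 7 lay between, with a median log2 ratio of -0.18. Of the 10 without a match, 9 were compared. IFI35 was called higher, TRIM25 and ADAR lower and 6 lay between, with a median of 0.04. Over all compared symbols 21.1% were called higher and 22.3% lower. The log2 ratios ran from -1.09 to 0.61 with a match and from -0.96 to 1.14 without. Median GC content of the last 300 transcript bases was 36.7% with a match and 43.0% without. These are descriptions of 2 libraries, and no test was made.

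Ratios in these libraries moved with the GC content of the transcript's 3′ end. Among all compared symbols under the median 3′ GC of 40.3%, the median log2 ratio was -0.28, and at or above it 0.32. The 10 genes of the set under that value had a median of -0.23, and the 12 at or above it a median of 0.01. IFI35 and IFITM2 have 3′ ends of 60.0% and 53.0% GC. After ratios were centred within 20 bins of 3′ GC, their log2 ratios were 0.42 and 0.52, under the limit of 1.5-fold, and IFIT5 (38.0% GC) was at -0.48. EIF2AK2 (-0.80), ADAR (-0.79), IFIT3 (-0.80) and TRIM25 (-0.91) were still past the limit on the lower side, and OAS3 (0.83) on the higher side. ISG20 (-0.61) and PARP12 (-0.88) passed it with centring and not in the uncentred comparison. The longest ISG20 transcript is not protein-coding. With 3′ GC of the longest protein-coding transcript, PARP12 still passed the limit and ISG20 did not. The centred set had 1 gene higher and 6 lower of 22, against 15.2% and 19.1% of all symbols after the same centring. Centring on GC content of the whole transcript gave 2 higher and 5 lower, against 15.2% and 19.9%. IFI35 (0.69) and IFITM2 (0.74) were then still past the limit, and OAS3 (0.39) and IFIT5 (-0.29) were not. The kit's name in the labels is that of a method for 3′ ends, and where along transcripts the reads lie was not tested.

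**Figure D3:**
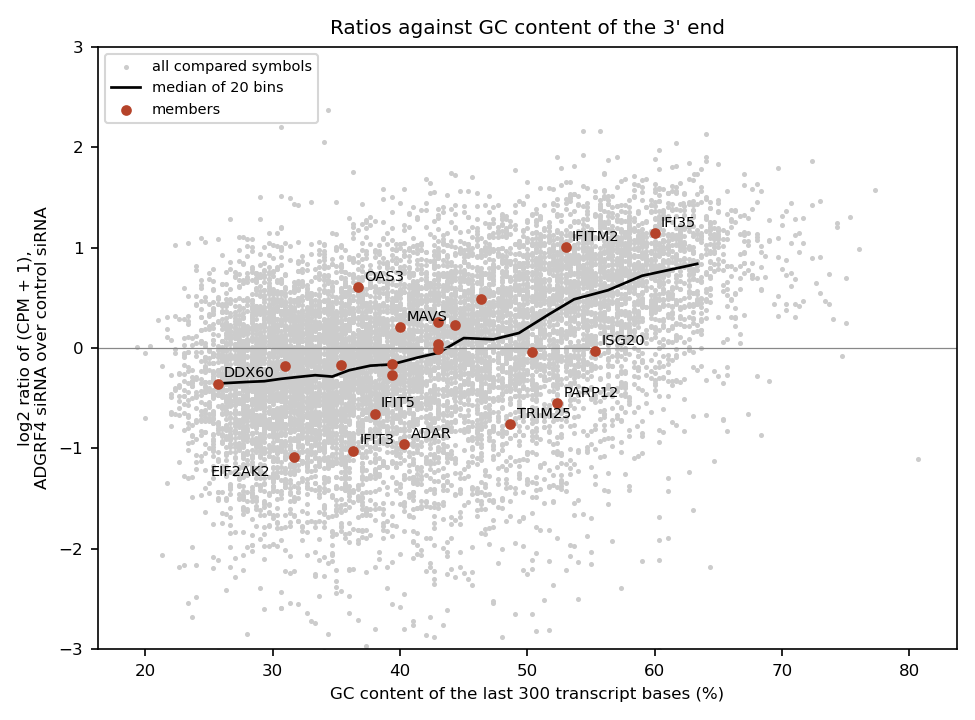
Log2 ratio of (CPM + 1), ADGRF4 siRNA over control siRNA, against GC content of the transcript's final 300 bases, for the 11139 compared symbols with a value (grey; 22 lie outside the plotted range) and the genes of the set (red); the line joins medians of 20 bins. IFI35 and IFITM2 lie above a rising median by less than 1.5-fold and OAS3 by more, while TRIM25, ADAR and EIF2AK2 lie below it.

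Interferon genes were almost unread, and 1 receptor chain was called lower. Of 21 interferon genes, 19 were at 0 in both libraries, among them IFNB1, the main type I interferon of epithelial cells, and IFNL1. IFNL2 had 0 counts after ADGRF4 siRNA and 1 in the control. IFNE, an epithelial type I interferon, had 12 and 9. Of the 6 receptor chains, 4 were compared and 1 was called. That is 25% lower, beside 22.3% of all compared symbols. IFNGR2, a chain of the interferon gamma receptor, had 114 counts in the ADGRF4 siRNA library and 420 in the control, 3.14-fold lower (2.55 to 3.90). IFNGR1, its partner chain, had 14 and 42 counts and was under the limit, with a ratio of 0.391 (0.197 to 0.730). The type I receptor chain IFNAR1 had 404 and 622 counts, a ratio of 0.762 (0.671 to 0.865), and IFNAR2 had 299 and 308, a ratio of 1.14 (0.968 to 1.34). IL10RB, which pairs with the lambda receptor, had 541 and 526 counts, a ratio of 1.21 (1.07 to 1.36). IFNLR1, the lambda receptor itself, had 7 and 17.

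Among 17 JAK, STAT and inhibitor genes, 15 were compared, with 2 higher, 3 lower and 10 between and a median log2 ratio of 0.01. That is 13.3% higher and 20% lower, against 21.1% and 22.3% of all compared symbols. SOCS3, a feedback inhibitor of cytokine receptors, had the largest difference of all genes printed here. It had 9 counts after ADGRF4 siRNA and 190 in the control, 18.0-fold lower (9.28 to 40.0). PIAS1 and PIAS4, SUMO ligases that restrain STAT activity, had ratios of 0.256 (0.189 to 0.342) and 0.510 (0.403 to 0.643), both called lower. USP18, which removes ISG15 from proteins and blocks the type I receptor, had 109 and 68 counts, 1.88-fold higher (1.38 to 2.58). The kinases JAK1 and TYK2 were chosen for mention after their values were seen. JAK1 had a ratio of 0.771 (0.703 to 0.846) and TYK2 of 1.01 (0.874 to 1.16).

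Of 25 genes that carry the signal from RNA sensors, 20 were compared, with 5 higher, 3 lower and 12 between. Their median was 0.05. The shares of 25% higher and 15% lower stand beside 21.1% and 22.3% of all compared symbols. TICAM1, which encodes TRIF, the adaptor of TLR3, had 18 counts in the ADGRF4 siRNA library and 81 in the control, 3.84-fold lower (2.28 to 6.80). TANK, a scaffold of the kinase TBK1, had 12 and 55 counts, 3.91-fold lower (2.07 to 8.02). NLRX1, a mitochondrial protein reported to restrain MAVS, had 320 and 136 counts, 2.76-fold higher (2.25 to 3.40). TRAF2, an adaptor of several immune receptors, had 155 and 64 counts, 2.84-fold higher (2.11 to 3.86). The 3′ ends of NLRX1 and TRAF2 are GC-rich, and their centred log2 ratios were 0.82 and 0.64.

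A list of 44 further interferon-stimulated genes also held calls in each direction. Among the 20 compared, 5 were higher, 4 lower and 11 between, with a median of -0.15. These shares, 25% higher and 20% lower, were close to the 21.1% and 22.3% of all compared symbols. PML, the organiser of nuclear bodies, had 207 counts after ADGRF4 siRNA and 118 in the control, 2.06-fold higher (1.63 to 2.60). LAP3, an aminopeptidase, had 135 and 83 counts, 1.91-fold higher (1.44 to 2.54). CMTR1, which methylates the mRNA cap, was 1.80-fold lower (1.38 to 2.36), and SAMD9, an antiviral factor, 1.95-fold lower (1.19 to 3.30). The other 24 genes of that list, including CXCL10 and GBP1, were under the count limit. Over all 6 lists, 61 of 121 genes were compared, with 13 higher, 11 lower and 37 between and a median of -0.01. The shares were 21.3% higher and 18.0% lower, beside 21.1% and 22.3% of all compared symbols.

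**Figure D4:**
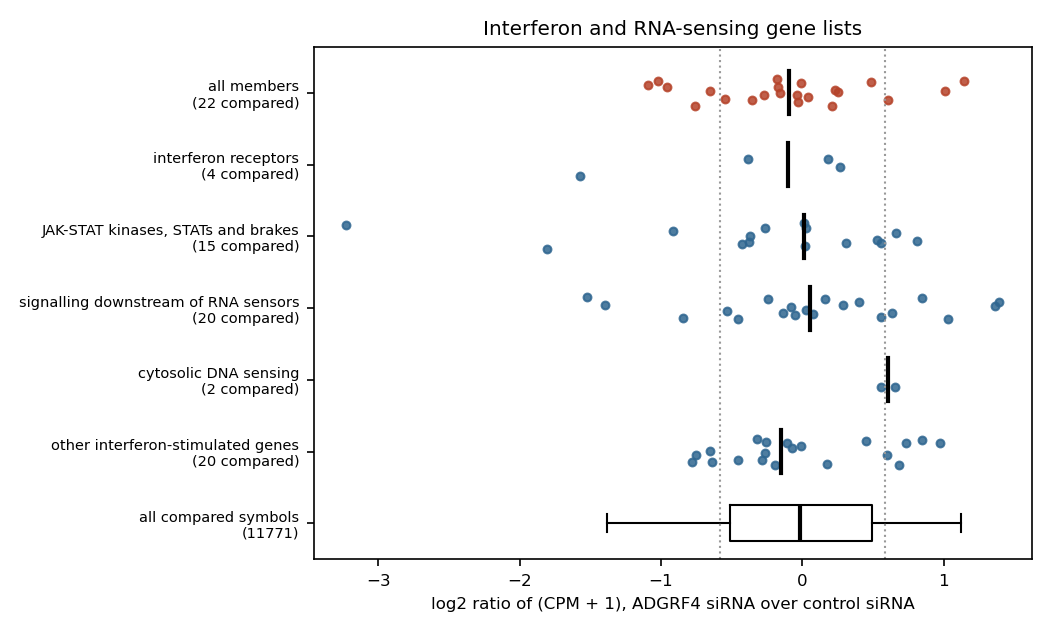
Log2 ratio of (CPM + 1), ADGRF4 siRNA over control siRNA, for each compared gene of the set (red) and of 5 related lists (blue), with the list median as a bar; the box shows all 11771 compared symbols (quartiles, with whiskers at the 5th and 95th percentiles) and dotted lines mark 1.5-fold. The medians of the lists with at least 4 compared genes lie between -0.15 and 0.05, and SOCS3 is the point furthest to the left.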

How the data were processed

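Per the labels' protocols, 500 ng of Trizol-extracted total RNA per culture went into a library made with a Lexogen kit named as QuantSeq, a method that reads mainly transcript 3′ ends. The catalogue number beside that name may belong to another Lexogen kit, so values that rest on 3′ ends hold only if the name is right. The authors deposited raw counts per gene symbol. Bowtie2, edgeR and hg19 are named in the submitters' processing notes. Not given in the sources used here are the role of each, the annotation and any use of strand. Rows of 1 symbol were summed (286 symbols; each gene of the set has 1 row). Levels were not compared between genes.

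TMM factors were computed over all symbols with edgeR 4.0.16 in R 4.3.3. The log2 ratio uses CPM + 1, which understates changes of low genes, and intervals are exact (Clopper-Pearson for ratios, 95%). They cover counting error only, since the files carry no molecular identifiers. The calculation was tested on simulated data. The named genes are all members, ADGRF4 and, per other list, up to 4 with the largest absolute log2 ratio. Other genes named (markers, ligands, receptors, kinases and genes under the count limit) were chosen after their values were seen. Members and lists were chosen with earlier results of these data known. Transcript facts come from GENCODE 29 (GRCh38), and promoters from RefSeq (GRCh38.p14). A 3′ GC value was found for 94.6% of compared symbols. Alternatives were other scalings (DESeq2 1.42.0 size factors, totals, upper quartile), pseudocounts, count limits, the fold, GC centring, thinning and row handling. Scripts ran in Python 3.11.15 with scipy 1.17.1, pandas 2.3.3 and numpy 2.4.6.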

Additional observations from a re-analysis of the deposited data

How the results depend on the processing

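All 8 called genes of the set kept the sign of their log2 ratio in all 102 values under the alternatives. That is little support, because another pseudocount, count limit or row handling cannot change the sign of these genes. Of the 279 values over the 22 compared genes, 18 had the other sign and 27 moved beyond the counting interval. The median of the set ran from -0.23 (total-count scaling) to 0.04. That of the compared related genes, 61 of 121 in the main setting, ran from -0.15 to 0.07. The count of genes called lower in the set was 3 with a pseudocount of 5 or a mean of at least 100 counts, and 2 at 2-fold, in place of 5. Over all compared symbols the lower calls were 1945 of 11771, 1788 of 8855 and 1219 of 11771 in these settings, in place of 2624. The count called higher was 1 in place of 3 after centring on 3′ GC, whether of the longest or of the longest protein-coding transcript. Over all symbols with a GC value that count was 1688 and 1674 of 11139, in place of 2483 of 11771 compared. Among the related genes, the count called higher was 8 with total-count scaling and 3 at 2-fold, in place of 13. Over all compared symbols the higher calls were 1898 and 923, in place of 2483. The count of related genes called lower was 7 with a pseudocount of 5, 18 with no count limit, 17 at a mean of 10, 5 at a mean of 100 and 5 at 2-fold, in place of 11. In the same settings all compared symbols gave 1945 lower of 11771, 3300 of 18276, 3048 of 13637, 1788 of 8855 and 1219 of 11771. More or fewer genes are compared at another count limit, and a larger pseudocount draws low genes towards 0. At 2-fold the limit itself is higher, and total-count scaling lowers the scaled CPM ratio of every gene by the same factor. The cause of the shifts with GC centring was not tested. OAS3 was not called with total-count scaling, a pseudocount of 5 or centring on whole-transcript GC. With no count limit IFIH1 and IFITM3 were also past 1.5-fold. Without the 3 IFITM genes 7 of 21 were called. Centring on 3′ GC of the protein-coding transcript and leaving out the IFITM genes were chosen after seeing the data. No paired analysis was possible because each treatment has 1 library. Depth limits the 17 genes under a mean of 30 counts, and replication limits every comparison.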

Other observations

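Cytosolic DNA sensing genes were mostly below the count limit in both libraries. Of 8 genes, 2 were compared. TREX1, a DNA exonuclease, had 224 counts after ADGRF4 siRNA and 163 in the control, 1.61-fold higher (1.31 to 1.98), and DDX41, a helicase, had 938 and 743 counts, a ratio of 1.48 (1.34 to 1.63). Their 3′ ends hold 58.7% and 56.0% GC, and their log2 ratios centred on 3′ GC were -0.07 and -0.02. TMEM173, which encodes STING, and MB21D1, which encodes the DNA sensor cGAS, were under the limit. Of 16 compared genes of class I antigen presentation, many of which respond to interferon, 4 (25%) were called higher and 6 (37.5%) lower. Over all compared symbols 21.1% were higher and 22.3% lower. The median log2 ratio of this list was -0.44, and -0.37 after centring on 3′ GC. Whether that list differs from the interferon-stimulated set was not tested.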
